A study of Arabidopsis thaliana with 12 samples.

Results

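The chloroplast NADH dehydrogenase-like (NDH) complex and the factors that build it were followed through 4 nuclear genes of Arabidopsis thaliana: NdhN (AT5G58260), CRR41 (AT1G51100), CRR21 (AT5G55740) and PIFI (AT3G15840). They were taken as the array rows whose platform annotation names exactly 1 gene, that gene being one of these. Each gene had 1 such row, so the genes make up 4 of 692 rows with a single gene name and 4 of 3439 rows in all. Total RNA from stn7stn8 plants, which carry mutations in both thylakoid protein kinase genes STN7 and STN8, was compared with RNA from wild type (WT), ecotype Columbia 0. Each genotype has 6 arrays by title, but the values of stn7stn8 replicates 4 and 5 were identical within 4e-10, so they were counted as 1 sample (n = 5 against 6). The titles alone give the genotype, because the source label of all 12 samples reads wild type, and the sources used here do not give organ, age or growth light. STN7 and STN8 had 0 rows with a single gene name, so the mutant genotype could not be checked on the arrays.

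The NDH complex sits in the unstacked thylakoid membranes and passes electrons from ferredoxin back to plastoquinone, which drives cyclic electron flow around photosystem I and chlororespiration in the dark. Part of its subunits are encoded in the plastid and the rest in the nucleus, and it joins photosystem I in a supercomplex. Many of its genes were found in mutants without the transient rise of chlorophyll fluorescence after a light is switched off, hence the name chlororespiratory reduction (CRR). NdhN is a subunit of the stromal arm, CRR41 an assembly factor of that arm, CRR21 a pentatricopeptide repeat protein needed to edit the plastid ndhD transcript, and PIFI a chloroplast protein without which the post-illumination rise in fluorescence is lost.

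After quantile normalization the 4 genes did not move as a block. CRR21 rose in stn7stn8 to 1.33 times the WT signal, CRR41 fell to 72.8% of it and PIFI to 76.8%, while NdhN, at 1.18 times, did not pass the test. Without scaling between arrays the directions of CRR41 and PIFI turned and neither passed. All fold changes were below 2-fold in either direction. Values were fitted with limma on the log2 scale over all 3229 rows with enough values, and a call means a Benjamini-Hochberg adjusted p under 0.05 over those rows. By that rule 3 of the 4 genes were called, where 43.3% of all rows were called, 23.7% higher and 19.6% lower. The number called moved with the scaling between arrays: 2 of 4 on the values as deposited (64.9% of all rows), 1 of 4 after median centring (46.2%) and 3 of 4 after cyclic loess (42.3%). Averaging consecutive arrays in both groups left none of the 4 passing, and 862 rows were called in place of 1398. The adjusted p were then 0.153 for NdhN, 0.0506 for CRR41 and CRR21, and 0.106 for PIFI (limma). Averaged in WT alone, only CRR41 passed (adjusted p = 0.0303, limma), where 1005 rows were called. The normalized values of the groups were fully apart for 0 of the 4 genes, beside 28.9% of all tested rows. The median log2 fold change of the 4 genes was -0.07, beside 0.0575 over all tested rows. Nothing in the labels says whether replicates came from separate plants, so the spread behind each p-value is that between arrays and may be technical. A lower array signal cannot tell fewer cells with a transcript from less transcript per cell.

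As deposited, the array medians differed, from -1.0 to -0.94 (log2 intensity) in stn7stn8 and from -1.65 to -1.36 in WT, while the summed intensities lay between 3586 and 3660 in stn7stn8 and between 3608 and 3682 in WT. The scaling therefore sets what 0 means for each gene. The median log2 fold change of all tested rows was 0.504 on the deposited values, 0.0212 after cyclic loess and -0.0344 after median centring. None of the 4 genes was listed at 0 or empty on any array (0 entries). Deviations from the group mean correlated across rows between stn7stn8 arrays with consecutive numbers at r = -0.368 (replicates 1 and 2) and -0.258 (3 and 4), so these did not resemble each other. Centring on the group mean by itself pulls such r below 0. In WT the r were 0.403 (1 and 2), 0.350 (3 and 4) and 0.591 (5 and 6). Consecutive WT arrays thus resembled each other, so the WT arrays may count as fewer independent samples than n = 6. These r are across rows, which are no independent replicates.

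NdhN, the subunit, had normalized log2 intensities of -0.88, -0.80, -0.72, -1.11 and -0.86 in stn7stn8 replicates 1, 2, 3, 4 and 6. In WT replicates 1 to 6 they were -1.09, -0.96, -1.13, -0.99, -1.32 and -1.21. The mutant arrays other than replicate 4 lay above the highest WT array. The group means were -0.87 ± 0.15 in stn7stn8 and -1.12 ± 0.13 in WT (SD, n = 5 and 6). The log2 fold change was 0.24 ± 0.0956 (SE; 95% confidence interval 0.03 to 0.45), with an unadjusted limma p of 0.0263 and an adjusted p of 0.0588. NdhN was thus above the WT mean in 5 of 5 mutant arrays without passing the threshold. It passed in 5 of 27 alternative ways of processing. It missed the threshold under median centring (0.20) and cyclic loess (0.21), with an adjusted p of 0.115 in both (limma). With array weights it was at 0.17 (adjusted p = 0.148, limma). Without stn7stn8 replicate 4, the lowest mutant array, the log2 fold change was 0.30 and passed (adjusted p = 0.0251, limma). NdhN also passed without WT replicate 2 (adjusted p = 0.0474, limma) and, with no scaling of the arrays, at 0.74 (adjusted p = 0.000292, limma). The latter is 0.23 relative to the median of all rows on that scale.

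CRR41, the assembly factor, had the smallest adjusted p of the 4 genes. Its normalized log2 intensities were -1.14, -1.06, -1.40, -1.46 and -1.33 in stn7stn8 replicates 1, 2, 3, 4 and 6, against -0.80, -0.84, -0.67, -0.68, -1.09 and -0.84 in WT replicates 1 to 6. The groups touched only at mutant replicate 2 and WT replicate 5, the lowest WT array. The means were -1.28 ± 0.17 in stn7stn8 and -0.82 ± 0.15 in WT (SD, n = 5 and 6). CRR41 fell by 0.46 ± 0.105 on the log2 scale (SE; 95% confidence interval -0.69 to -0.23; adjusted p = 0.00445, limma), and kept the call when any single array was left out (adjusted p from 0.00217 to 0.0128, limma). Without scaling between arrays its direction turned, to 0.05 (adjusted p = 0.726, limma), which is -0.45 relative to the median of all rows on that scale. With consecutive arrays averaged in both groups the log2 fold change was -0.47 and missed the threshold (adjusted p = 0.0506, limma).

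CRR21, the editing factor, went the other way. Its normalized log2 intensities were -0.15, -0.59, -0.71, -0.14 and -0.32 in stn7stn8 replicates 1, 2, 3, 4 and 6. In WT replicates 1 to 6 they were -0.84, -0.88, -0.94, -0.92, -0.58 and -0.61. Mutant replicates 1, 4 and 6 lay above every WT array, whereas mutant replicate 2 lay between WT replicates 5 and 6 and mutant replicate 3 below both. The means were -0.38 ± 0.26 in stn7stn8 and -0.80 ± 0.16 in WT (SD, n = 5 and 6), and CRR21 rose by 0.41 ± 0.126 on the log2 scale (SE; 95% confidence interval 0.14 to 0.69; adjusted p = 0.0198, limma). The call was lost without stn7stn8 replicate 4 (0.35, adjusted p = 0.0512, limma), under median centring (0.27, adjusted p = 0.103) and with consecutive arrays averaged in WT alone or in both groups (adjusted p = 0.0904 and 0.0506). Without scaling CRR21 was at 0.81 (adjusted p = 7.02e-05, limma), which is 0.30 relative to the median of all rows on that scale.

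PIFI had a dim row, brighter than 18.0% of all tested rows. Its normalized log2 intensities were -2.86, -2.43, -2.41, -2.78 and -2.32 in stn7stn8 replicates 1, 2, 3, 4 and 6, against -2.15, -2.14, -2.06, -2.10, -2.27 and -2.36 in WT replicates 1 to 6. Of the mutant arrays, only replicate 6 reached into the WT range, where it lay just above WT replicate 6. The means were -2.56 ± 0.24 in stn7stn8 and -2.18 ± 0.12 in WT (SD, n = 5 and 6), and PIFI fell by 0.38 ± 0.114 on the log2 scale (SE; 95% confidence interval -0.63 to -0.13; adjusted p = 0.0182, limma). Without scaling its direction turned, to 0.23 (adjusted p = 0.191, limma), which is -0.27 relative to the median of all rows there. The call was also lost under median centring (-0.31, adjusted p = 0.0558) and with consecutive arrays averaged in WT alone or in both groups (adjusted p = 0.0910 and 0.106).

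**Figure D1:**
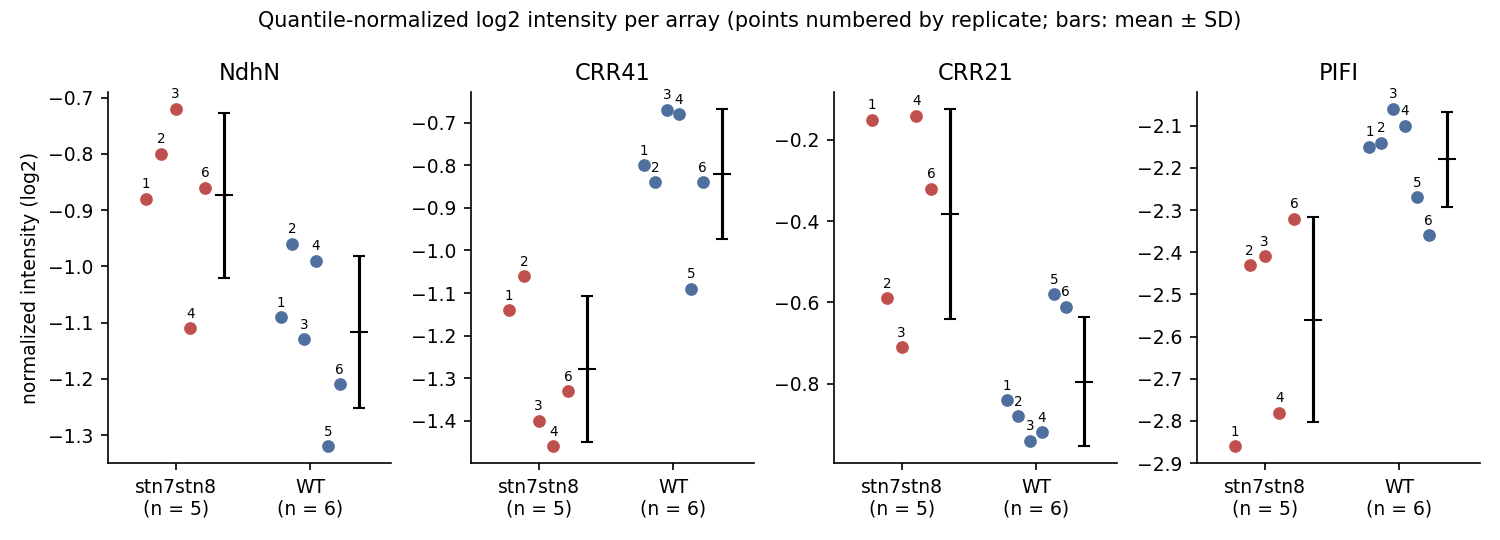
Normalized intensity (log2) of NdhN, CRR41, CRR21 and PIFI on each array, with stn7stn8 arrays (n = 5, red) left of WT arrays (n = 6, blue), points numbered by replicate and bars for the mean ± SD. The groups of every gene touch or overlap: for CRR41 mutant replicate 2 at -1.06 lies just above WT replicate 5 at -1.09, and for CRR21 mutant replicates 2 and 3 do not reach above WT replicate 5.

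The deposited intensities, on a linear scale whose unit is not stated, show the same genes before any scaling of the arrays to each other. NdhN read 0.647, 0.670, 0.716, 0.566 and 0.671 in stn7stn8 replicates 1, 2, 3, 4 and 6, and 0.401, 0.437, 0.425, 0.472, 0.306 and 0.335 in WT replicates 1 to 6. CRR21 averaged 0.887 ± 0.136 in stn7stn8 and 0.503 ± 0.0333 in WT (SD, n = 5 and 6). For these 2 genes no mutant array overlapped a WT array, which on the deposited scale was so, with the mutant higher, in 41.1% of all tested rows. CRR41 averaged 0.507 ± 0.0490 in stn7stn8 and 0.492 ± 0.0844 in WT, and PIFI 0.215 ± 0.0366 in stn7stn8 and 0.184 ± 0.0327 in WT (SD, n = 5 and 6), and both overlapped. On this scale 56.2% of all rows were called higher and 8.70% lower, so the small differences of CRR41 and PIFI stood below the median difference of all rows.

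**Figure D2:**
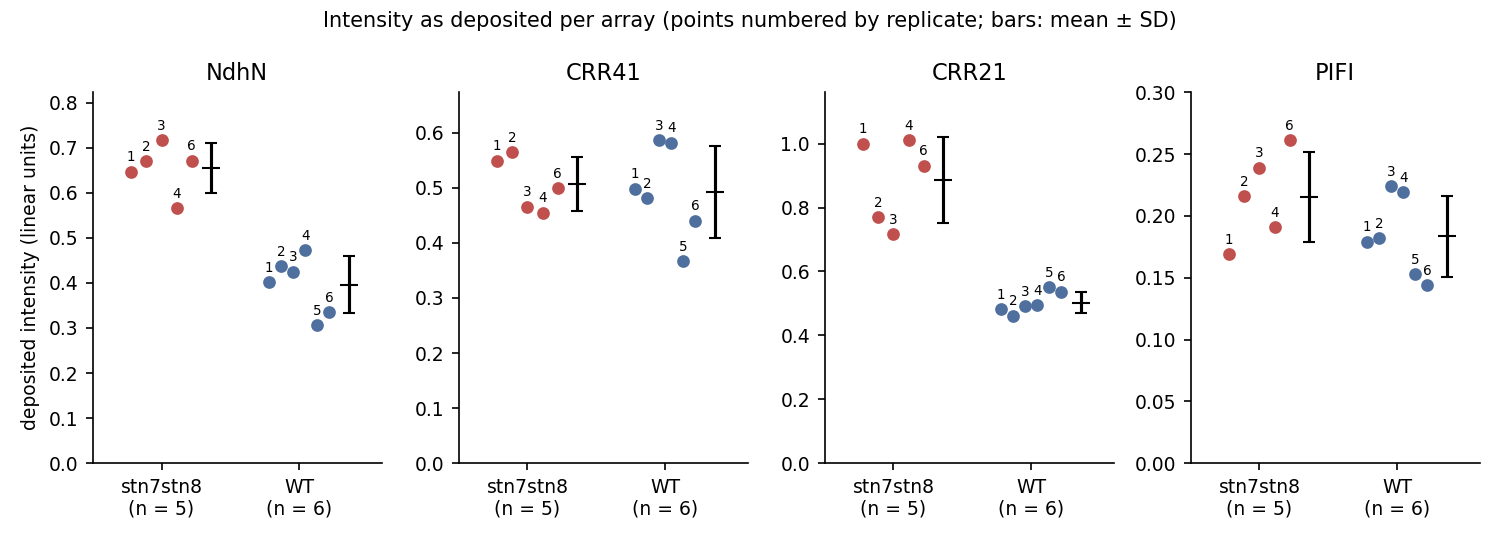
Intensity as deposited (linear, unit not stated, axes from 0) of the 4 genes on each array, with stn7stn8 (n = 5, red) left of WT (n = 6, blue), points numbered by replicate and bars for the mean ± SD. The mutant arrays of NdhN (0.566 to 0.716) and CRR21 lie above all WT arrays, while those of CRR41 and PIFI overlap WT.

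Because 1 factor per array cancels when genes are divided on the same array, the log2 ratios of the deposited intensities were taken for all 6 pairs of the 4 genes, a step chosen after the values were seen. NdhN over CRR41 had log2 ratios of 0.24, 0.25, 0.62, 0.32 and 0.43 in stn7stn8 replicates 1, 2, 3, 4 and 6, and -0.31, -0.14, -0.46, -0.30, -0.26 and -0.39 in WT replicates 1 to 6. Every mutant array thus lay above every WT array, with means of 0.37 ± 0.16 in stn7stn8 and -0.31 ± 0.11 in WT (SD, n = 5 and 6), a difference of 0.68. NdhN over PIFI did not overlap either, with means of 1.62 ± 0.21 in stn7stn8 and 1.11 ± 0.13 in WT, the lowest mutant array at 1.36 and the highest WT array at 1.27. A factor that scales a whole array cannot change these differences, but an array effect that differs with intensity can. NdhN was brighter than 58.3% of tested rows, CRR41 than 57.5% and PIFI than 18.0%, and such an effect was not tested. Among all 196251 pairs of rows with a single gene name, the ratios of 26.8% did not overlap between the groups, and 2 of 6 pairs is near that background, so the separation is not particular to these genes.

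The other 4 pairs overlapped. CRR21 over CRR41 averaged 0.80 ± 0.27 in stn7stn8 and 0.05 ± 0.33 in WT (SD, n = 5 and 6), the widest difference of the 6 pairs at 0.75. Its overlap came from WT replicate 5, at 0.58, which lay above mutant replicate 2, at 0.44. CRR21 over PIFI averaged 2.04 ± 0.42 in stn7stn8 and 1.47 ± 0.33 in WT. The difference of a pair is that between its members' log2 fold changes on the deposited values, so pairs whose members moved alike must differ least. CRR21 over NdhN averaged 0.43 ± 0.33 in stn7stn8 and 0.36 ± 0.33 in WT, and PIFI over CRR41 -1.25 ± 0.32 in stn7stn8 and -1.42 ± 0.11 in WT.

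**Figure D3:**
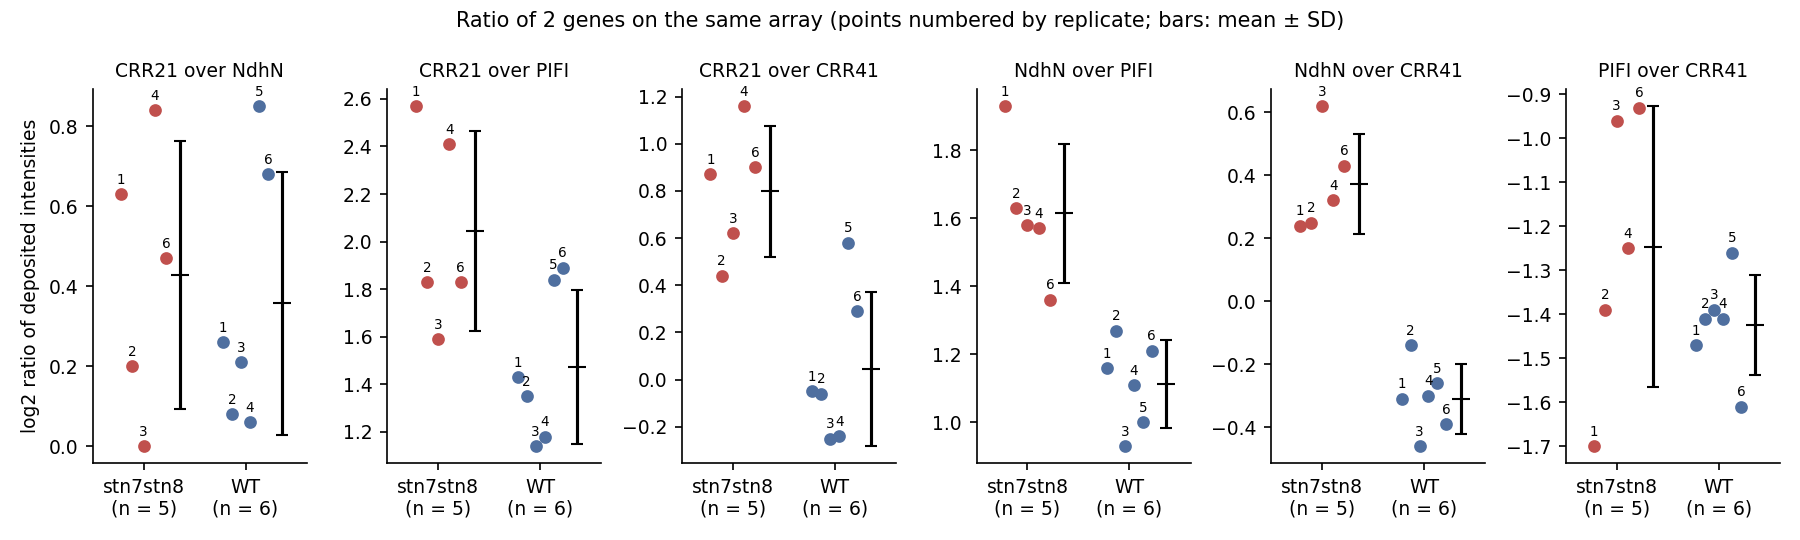
Log2 ratio of the deposited intensities of 2 genes on the same array for all 6 pairs, with stn7stn8 (n = 5, red) left of WT (n = 6, blue), points numbered by replicate and bars for the mean ± SD. Mutant and WT arrays are fully apart for NdhN over PIFI and NdhN over CRR41 and overlap for the other 4 pairs.

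The wider NDH pathway was sparsely covered. Of 48 nuclear genes listed as NDH subunits, assembly and accessory factors, or RNA factors of plastid ndh transcripts, 7 had a tested row with a single gene name: the 4 genes above and NdhS, Cpn60beta4 and OTP85. Of the 48, 3 occurred in rows that name several genes, and such rows were not used. Of the 7 measured, 2 rose, 2 fell and 3 did not pass, with a median log2 fold change of 0.24. Over all tested rows 23.7% were called higher and 19.6% lower, and the median was 0.0575, so these counts on 7 genes are a description and no result about the pathway. Both measured subunits, of 20 listed, lay higher in the mutant, but only NdhS passed, and its direction turned under median centring. Of 3 measured assembly and accessory factors, of 11 listed, CRR41 and PIFI fell, except without scaling, and Cpn60beta4 did not pass. Of 2 measured RNA factors, of 17 listed, CRR21 rose and OTP85 did not pass. A list of 8 genes of the other cyclic route and of chlororespiration had 0 measured members, as had the 6 leaf markers and the 6 markers of non-green plastids and seeds, so the tissue could not be checked.

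NdhS (CRR31), the subunit that forms the docking site for ferredoxin, showed the largest change of the 7 after quantile normalization. Its normalized log2 intensities were 5.21, 5.12, 5.05, 4.50 and 4.68 in stn7stn8 replicates 1, 2, 3, 4 and 6, against 4.15, 4.07, 4.08, 3.93, 3.99 and 4.08 in WT replicates 1 to 6. The groups did not overlap, which held, with the mutant higher, for 15.7% of all tested rows after normalization. NdhS rose by 0.86 ± 0.127 on the log2 scale (SE, adjusted p = 0.000273, limma), at means of 4.91 ± 0.30 in stn7stn8 and 4.05 ± 0.08 in WT (SD, n = 5 and 6). Its row was brighter than 99.5% of tested rows, and its size and direction depended on the scaling. NdhS was at 0.83 after cyclic loess, but at -0.13 after median centring (adjusted p = 0.393, limma). Without scaling it was at 0.41 (adjusted p = 0.00478, limma), which is -0.09 relative to the median of all rows on that scale.

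Cpn60beta4 (CRR27), a chaperonin subunit needed to fold the plastid-encoded NdhH, ranged widely in the mutant. Its normalized log2 intensities were -2.73, -0.90, -2.24, -2.19 and -3.01 in stn7stn8 replicates 1, 2, 3, 4 and 6, and lay between -2.73 and -2.17 in WT. Mutant replicate 2 alone stood above WT: the log2 fold change was 0.27 ± 0.307 (SE, adjusted p = 0.508, limma) and turned to -0.06 without it. OTP85, a pentatricopeptide repeat protein that, like CRR21, edits ndhD, gave -0.19 ± 0.0993 (adjusted p = 0.144, limma) and turned to 0.43 without scaling (adjusted p = 0.0260, limma). OTP85 was called lower with array weights (-0.24, adjusted p = 0.0449, limma) and without WT replicate 5 (-0.25, adjusted p = 0.0353, limma). All 5 mutant arrays of OTP85 were below the WT mean, and 0 were below the lowest WT array. AT3G22690, the 1 measured of 10 genes listed as other plastid RNA editing factors, gave 0.18 ± 0.180 (adjusted p = 0.440, limma), or 0.77 without scaling (adjusted p = 0.000949, limma). After quantile normalization the editing factors measured thus held 1 called gene, CRR21, where 43.3% of all tested rows were called. CRR21, OTP85 and AT3G22690 were all called higher without scaling, as were 56.2% of all tested rows. None of them passed under median centring, where 46.2% of all tested rows were called. The difference between CRR21 and OTP85 was not tested.

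**Figure D4:**
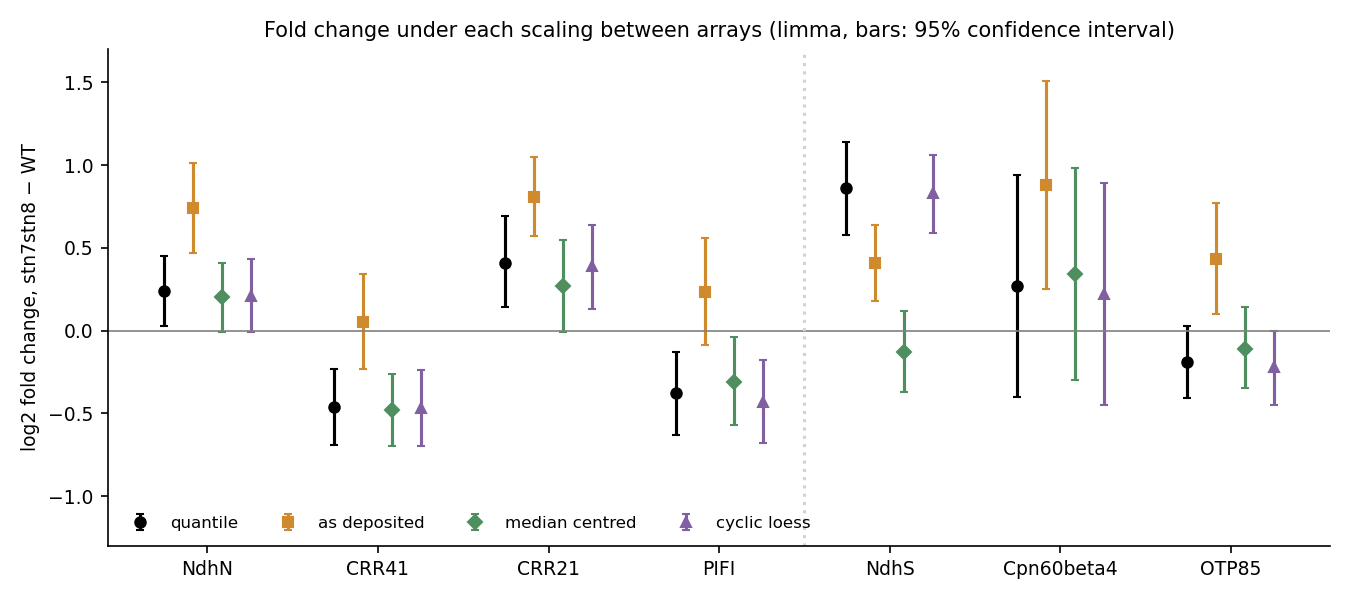
Log2 fold change (stn7stn8 minus WT, n = 5 and 6) of the 4 genes, left of the dotted line, and of NdhS, Cpn60beta4 and OTP85, under 4 scalings between arrays, with bars for the 95% confidence interval (limma). The estimates of CRR41 and PIFI lie below 0 except on the deposited values (0.05 and 0.23), and that of NdhS drops to -0.13 after median centring. The estimates of CRR21 and NdhN lie above 0 under all 4. The interval of NdhN under median centring and cyclic loess, and that of CRR21 under median centring, reach down to -0.01.

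Rows with a single gene name were then ranked by how closely their normalized log2 values, each centred on the row's mean, followed each of the 4 genes over the 11 arrays. The measure was the root mean square difference, over 627 rows with a value on every array. Since the group difference is part of this distance, a change like that of the gene followed is built into the choice, and the fold changes of these rows are given as a description with no test. The closest to NdhN was AT3G18870 at 0.0911, followed by AT5G33390 at 0.0996 and AT5G53920 at 0.100, where the median of all rows was 0.328. Their log2 fold changes were 0.30, 0.28 and 0.36, beside 0.24 for NdhN, and AT3G18870 turned to -0.10 under median centring. The closest to CRR21 were AT1G76220 at 0.119, AT2G36560 at 0.126 and AT5G43770 at 0.136, against a median of 0.361. Their log2 fold changes were 0.36, 0.44 and 0.41, and that of AT1G76220 was 0.16 under median centring.

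CRR41 was followed most closely by AT4G17260 at 0.146, chr31 (AT1G05490, named as a chromatin remodeling factor) at 0.147 and AT4G38040 at 0.157, against a median of 0.423. PIFI was followed by the same chr31 row at 0.138, by AT5G40050 at 0.152 and by AT2G25870 at 0.164, against a median of 0.404. The row of chr31 had a log2 fold change of -0.47, and ranged over the 4 scalings from -0.83 after median centring to -0.30 on the deposited values. The log2 fold changes were -0.43 for AT4G17260, -0.22 for AT4G38040, -0.32 for AT5G40050 and -0.31 for AT2G25870. On the deposited values AT4G17260, AT4G38040 and AT5G40050 turned to 0.01, 0.21 and 0.22. Rows close to one another share the arrays and their scaling, and the ranking describes signal only.

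**Figure D5:**
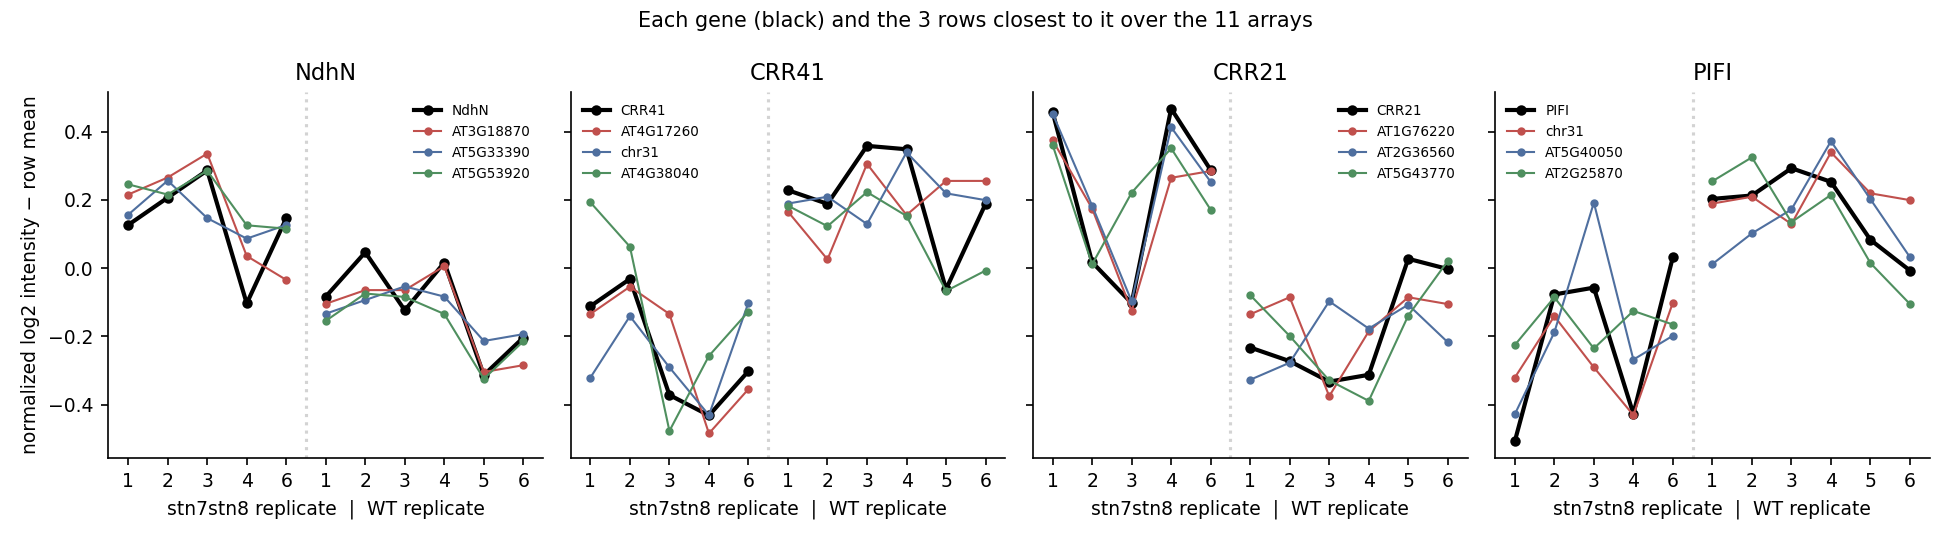
Normalized log2 intensity minus the row mean (y axis) on the 5 stn7stn8 arrays, left of the dotted line, and the 6 WT arrays, for each of the 4 genes (black) and the 3 rows closest to it (coloured), with lines only to guide the eye. NdhN and CRR21 and their closest rows lie mostly higher in stn7stn8, and CRR41 and PIFI and theirs mostly lower.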

How the data were processed

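Each array gave 1 deposited intensity per row, on a linear scale and never below 0. The sources used here do not give the authors' scaling, background correction, array type or genome build, so no coordinates are printed. Zeros were treated as missing, values were taken to log2 and quantile-normalized, and rows with at least 4 values per group were fitted with limma 3.58.1 (lmFit, eBayes, two-sided) in R 4.3.3. Benjamini-Hochberg adjustment ran over all 3229 tested rows, and the threshold was 0.05. No depth or detection flag comes with the table, and precision is limited by the number of arrays.

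Names came from the platform annotation through NCBI gene IDs: 690 of 692 rows with a single gene matched the TAIR10.1 gene table, 870 rows name several genes and 1877 none. The text names the 4 genes, every measured gene of the pathway lists, and the 3 rows closest to each of the 4 genes. The members and lists were chosen with earlier results of these data known. Alternatives changed the scaling, zeros, filters on low values, variance model and handling of replicates, and left out each array in turn.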

Additional observations from a re-analysis of the deposited data

Results flagged for a closer look

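In 50 groups of values, made of the named genes and the ratios between the 4 genes in each genotype, 1 array lay far from the rest of its group, where chance gives about 1 in 20 groups. AT1G76220, the row closest to CRR21, had a normalized log2 intensity of -0.76 in WT replicate 3, and the other WT arrays lay between -0.57 and -0.47.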

How the results depend on the processing

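The number of arrays limits the precision. CRR41 passed in 25 of 27 alternatives, CRR21 in 23 of 27, PIFI in 21 of 26 and NdhN in 5 of 27. These alternatives reuse the same arrays, and 11 of them only leave out 1 array each. Some were chosen after the data were seen, so the counts are not independent tests. On the deposited values NdhN was at 0.74, CRR41 at 0.05 and PIFI at 0.23. There 1814 rows were higher and 281 lower (766 and 632 after quantile normalization), and the arrays' medians differed. With arrays centred on their medians CRR21 was at 0.27 and PIFI at -0.31. With consecutive arrays averaged in both groups, which leaves 3 values in each and in stn7stn8 joins arrays that did not resemble each other, 862 rows were called in place of 1398, 450 higher and 412 lower, with CRR41 at -0.47, CRR21 at 0.42 and PIFI at -0.34. Averaged in WT alone, CRR21 was at 0.41 and PIFI at -0.38. Leaving out each array in turn gave 0.20 to 0.30 for NdhN, -0.51 to -0.41 for CRR41, 0.35 to 0.50 for CRR21, -0.44 to -0.31 for PIFI and -0.06 to 0.47 for Cpn60beta4. NdhN passed at 0.24 without the dimmest 25% of rows (adjusted p = 0.0475, limma), a filter that also removed PIFI. With the median intensity of 0.426 added before log2, CRR41 was at -0.24, CRR21 at 0.25 and PIFI at -0.12, and all 3 passed.

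The arrays share replicate numbers between genotypes, and the r of their deviations was 0.191, 0.173, 0.228 and 0.133 for numbers 1, 2, 3 and 6. For the identical arrays it was 0.009 as number 4 and 0.091 as number 5. Each of the 5 distinct mutant arrays correlated best with a WT array of its own number, with the identical arrays taken as 5, which is a hint from the data. The numbers were not taken as pairs, because not every r was above 0.1. With a replicate block the counts were 796 higher and 629 lower, with NdhN at 0.20, CRR41 at -0.51, CRR21 at 0.46 and PIFI at -0.40. PIFI stayed just under the threshold there (adjusted p = 0.0472, limma), and NdhN missed it (adjusted p = 0.147, limma). OTP85 passed there (-0.25, adjusted p = 0.0380, limma). With the identical arrays numbered 5 in the block, chosen after the data were seen, NdhN was at 0.27 and passed (adjusted p = 0.0277, limma). Without stn7stn8 replicates 1 and 2, also chosen afterwards, PIFI was at -0.33 and missed the threshold (adjusted p = 0.0596, limma). Other directions that turned were those of NdhS (-0.13) and AT3G18870 (-0.10) with arrays centred on their medians, and of OTP85 (0.43), AT4G17260 (0.01), AT4G38040 (0.21) and AT5G40050 (0.22) on the deposited values. The cause was not tested.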
